A study of Bos taurus with 30 samples.

Results

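The miRNAs miR-199 and miR-214 were followed in small RNA libraries of the anterior pituitary, the part of the gland that secretes its hormones, from 30 bull calves. Their rows were chosen by name, with no measured value entering the choice, and were bta-miR-199a-3p, bta-miR-199a-5p, bta-miR-199b, bta-miR-199c and bta-miR-214, 5 of the 1030 mature miRNA rows. All 5 passed the filter on low values that left 419 rows for testing. The calves were Holstein-Friesian males bought from several dairy farms, and no label ties a calf to its farm. In the HI group (n = 15) each calf was given, starting at 2 weeks of age, 1.5 kg of milk replacer made up to 10 L daily, with unlimited concentrate. In the MOD group (n = 15) the daily ration was 0.5 kg of milk replacer made up to 4 L, with 0.5 kg of concentrate. All tissue was taken at 12 weeks of age, and each calf gave 1 library. Because the RNA came from unsorted tissue, fewer cells of a type and less of a miRNA per cell cannot be told apart.

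Both miRNAs are known for mesenchymal cells, the fibroblasts and related cells that make and hold connective tissue. In mammals miR-214 and a copy of miR-199a are cut from a single long RNA transcribed from the strand opposite to the dynamin gene DNM3, and further copies of miR-199 lie within other dynamin genes. A hairpin precursor gives a mature miRNA from each arm, named 5p and 3p, and either can be loaded into the silencing complex. The anterior pituitary consists mainly of endocrine cells, with fibroblasts, pericytes and blood vessels between them. No fibroblasts were sorted and no mRNA was analysed here, so the fibroblast origin could be compared only with other miRNAs of connective tissue, whose values are given after those of the members.

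Values are counts per 1000000 reads (CPM) scaled by the trimmed mean of M values (TMM). Each library held between 6650492 and 11086524 reads assigned to miRNAs. An empty count leaves room for up to 3 reads, which corresponded to 0.266 to 0.419 CPM. The libraries of HI replicate 1 and of a set of 9 calves need to be known before the values are read. HI replicate 1 had 17.1% of its reads on miR-143, a miRNA of smooth muscle and fibroblasts, against at most 7.89% in any other library. Earlier results of these data showed that the 9 libraries with the highest calf label numbers (5 HI, 4 MOD) differed from the other 21 (10 HI, 11 MOD), and the labels do not say what sets them apart. Values with and without HI replicate 1, and within each set, are therefore given beside the results.

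The table held fewer independent measurements of miR-199 than it had rows. miR-199a-3p and miR-199c had the same number of reads, within 0.01 read, in 28 of 30 libraries. The others were HI replicate 11, where they differed by 0.667 read, and MOD replicate 1, where they differed by 1 read. In 20 libraries the miR-199a-3p value was a fractional number of reads, as was that of miR-199c in 19 libraries, whereas miR-199a-5p, miR-199b and miR-214 were whole in all 30. Among the 320 rows that reached 100 reads, the only other pair equal within 1 read was miR-129 with miR-129-5p. The same reads thus appear under the names miR-199a-3p and miR-199c, and which precursor they came from is uncertain. The 5 rows therefore hold 4 measurements, and where counts over 5 rows or 10 pairs are given, miR-199c repeats miR-199a-3p.

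miR-199a-3p was the most abundant member, at rank 103 of 1030 by mean level, next to miR-199c at 102. In HI calves its lowest, median and highest levels were 345, 488 and 870 CPM, with a mean of 523 ± 160 (SD, n = 15). In MOD calves they were 308, 400 and 549 CPM, with a mean of 420 ± 86.3 (SD, n = 15). The groups overlapped over most of their range, since 11 of the 15 HI calves exceeded the median of the MOD calves, 6 exceeded every MOD calf and 3 MOD calves lay below every HI calf. The highest level was that of HI replicate 1, followed by HI replicate 15 at 760 CPM. miR-199c gave the same levels.

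miR-199a-5p, the other arm of the miR-199a hairpin, was at a lower level, with 60.9 to 188 CPM over all libraries and rank 165. Its medians for HI and MOD calves were 83.9 and 79.8 CPM, and its means were 96.0 ± 34.2 and 82.3 ± 13.1 CPM (SD, n = 15 each). The HI calves extended further at both ends, with 4 above the highest MOD calf and 2 below the lowest, and their SD was 2.60 times that of the MOD calves, or 1.81 times without HI replicate 1.

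miR-199b, which the table lists without an arm, ranged from 81.7 through a median of 121 to 182 CPM in HI calves. In MOD calves it ranged from 59.2 through 104 to 160 CPM. The means were 123 ± 30.6 and 106 ± 29.6 CPM (SD, n = 15 each), and here the spread of the groups was alike, with an SD ratio of 1.04. Its highest library was HI replicate 15, and HI replicate 1 ranked 4 of 30.

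miR-214 was the least abundant member, at rank 257, with 104 to 440 reads per library. Its levels ran from 10.9 through a median of 17.8 to 50.8 CPM in HI calves and from 11.7 through 19.1 to 22.7 CPM in MOD calves. The means were 21.03 ± 9.67 and 17.8 ± 3.18 CPM (SD, n = 15 each). The HI median lay below the MOD median while the HI mean lay above the MOD mean. HI replicate 1 stood at 50.8 CPM and the next library at 30.6 CPM, and without HI replicate 1 the HI mean was 18.9 ± 5.27 CPM (SD, n = 14) and the HI median 17.3 CPM. The SD of HI calves was 3.04 times that of MOD calves with that library and 1.66 times without it.

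Reads of mature miRNAs span the whole molecule, so no correction for length was made when different miRNAs were set side by side in CPM. How evenly different miRNAs were captured in the libraries was not measured, so their order is one of read numbers. miR-199a-3p exceeded miR-199b, and miR-199a-5p exceeded miR-214, in 30 of 30 libraries. miR-199b exceeded miR-199a-5p in 25 of 30, and these neighbours in the order did not separate beyond their spread. The members varied between calves more than most miRNAs. Within diets the SD on the log2 scale was 0.36 for miR-199a-3p, 0.36 for miR-199a-5p, 0.38 for miR-199b and 0.41 for miR-214, against a median of 0.25 over the 419 tested miRNAs, 78.0% to 84.0% of which varied less.

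**Figure D1:**
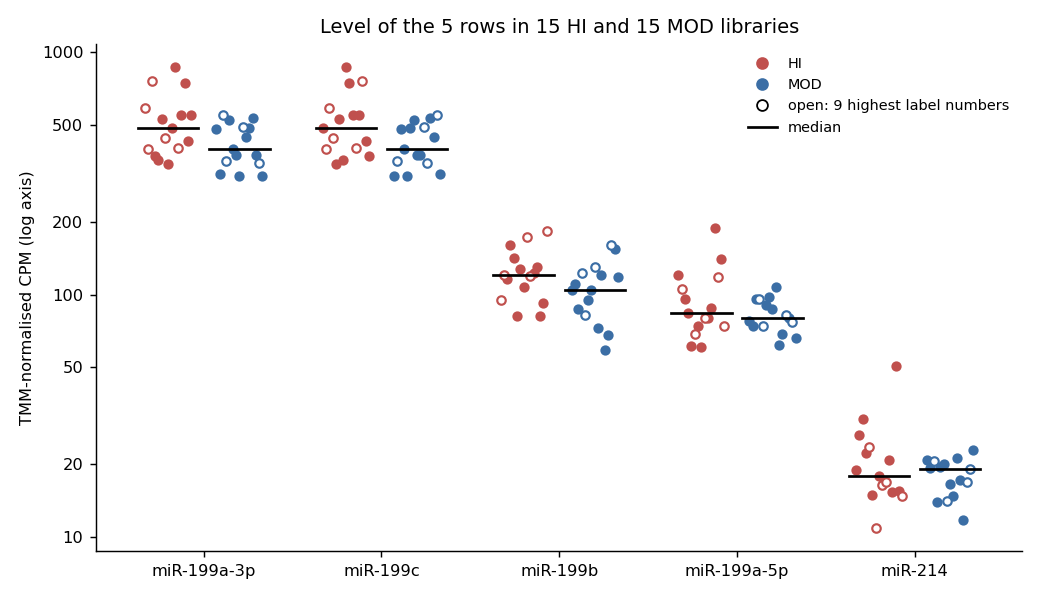
Level of each row in TMM-normalised CPM on a log axis, 1 point per calf, for HI (red) and MOD (blue), with open points for the 9 highest label numbers and lines at the medians. The HI and MOD points overlap in every row, and HI replicate 1 is the top point of miR-199a-3p, miR-199c, miR-199a-5p and miR-214.

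Whether the plane of nutrition changed the level of a miRNA was the question of the study. No member passed the threshold of FDR < 0.1 between HI and MOD calves (limma with Benjamini-Hochberg adjustment over 419 miRNAs), 0 of 5 against 15 of all 419, or 3.58%. These calls rest on FDR alone, whereas the study also required a fold change above 1.5. The log2 difference was above 0 for all 5 rows, as it was for 54.9% of the tested miRNAs. miR-199a-3p was nearest to the threshold, with a log2 difference of 0.28 (SE 0.13, FDR 0.314), and its 95% interval of the fold ran from 1.02 to 1.46. The unadjusted p of 0.0314 was under 0.05, as was that of 12.6% of the miRNAs tested. miR-199b gave 0.23 (SE 0.14, FDR 0.590), miR-199a-5p 0.17 (SE 0.13, FDR 0.721) and miR-214 0.15 (SE 0.14, FDR 0.787). In this fit the upper ends of their intervals lay below the 1.5-fold change that the study set as a second threshold, as did that of miR-199a-3p. Intervals under other scalings, where the log2 difference of miR-199a-3p reached 0.35, are not given here.

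Without HI replicate 1 the same fit gave smaller differences in every row. That of miR-199a-3p was 0.23 (FDR 0.460), that of miR-199b 0.20 (FDR 0.640), that of miR-199a-5p 0.092 (FDR 0.869) and that of miR-214 0.055 (FDR 0.941). HI replicate 1 therefore held much of the difference of miR-214 and miR-199a-5p and little of that of miR-199b.

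**Figure D2:**
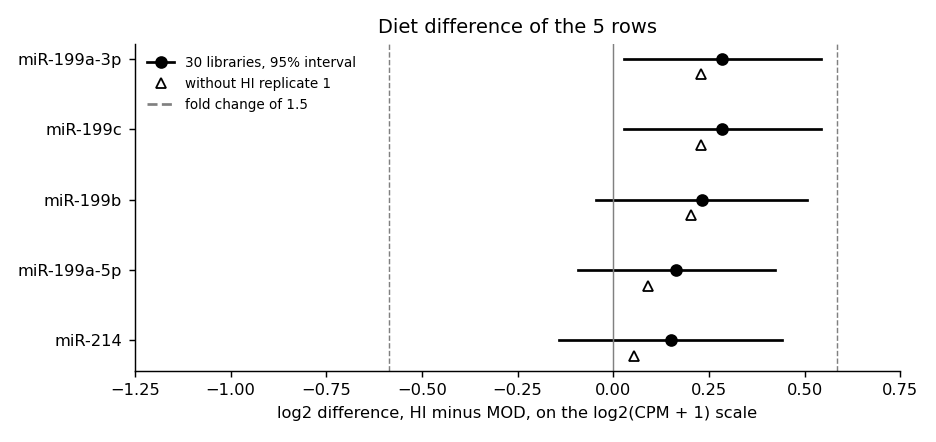
Log2 difference between HI and MOD calves on the log2(CPM + 1) scale for the 5 rows (filled points, with 95% intervals from limma, n = 15 each) and without HI replicate 1 (triangles). Dashed lines mark a fold change of 1.5, and all 5 intervals end below it.

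Within the sets the directions were mostly alike. In the 21 libraries with lower label numbers miR-199a-3p was higher by 0.30 on the log2 scale in HI calves (exact permutation test, two-sided, p = 0.0803), miR-214 by 0.28 (exact p = 0.139), miR-199b by 0.24 (exact p = 0.155) and miR-199a-5p by 0.20 (exact p = 0.275). In the 9 libraries the corresponding differences were 0.23 (exact p = 0.381), -0.12 (exact p = 0.635), 0.16 (exact p = 0.540) and 0.095 (exact p = 0.603). Only miR-214 differed in sign. The diet difference of miR-214 was not shown to differ between the sets, with an interaction of -0.40 on the log2 scale (SE 0.30, FDR 0.827 by limma). No miRNA of the 419 passed that test (0% called), 21 or 5.01% had an unadjusted p under 0.05, and edgeR's quasi-likelihood test called 0 with 23 under 0.05.

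Ratios of CPM values between members of the same library do not depend on how libraries were scaled. The log2 differences of ratios were taken after adding 1 CPM to each value, so they can depend on the scaling to a small degree. The ratio of the rows of miR-199a, 5p over 3p, ran from 0.152 through a median of 0.181 to 0.219 in HI calves and from 0.168 through 0.201 to 0.222 in MOD calves. The row of miR-199a-3p, whose reads are shared with miR-199c, was thus the higher in every calf, and the ratio holds for the rows rather than for the arms of a known hairpin. HI calves had the lower ratio by 0.12 on the log2 scale, with 5 of 15 above the MOD median, and the difference did not hold after adjustment over the 5 ratios tested (two-sided permutation test, p = 0.0456, adjusted p = 0.228). Without HI replicate 1 it was -0.14, with an adjusted p of 0.0878, which is below 0.1. Within the sets it was -0.14 in the 9 libraries (exact p = 0.286) and -0.10 in the 21 (exact p = 0.126).

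miR-214 relative to miR-199a-3p had medians of 0.0392 in HI and 0.0424 in MOD calves, a difference of -0.13 on the log2 scale (permutation p = 0.125, adjusted p = 0.312). Without HI replicate 1 the difference was -0.17, with an adjusted p of 0.0878, also below 0.1. Within the sets it was -0.35 in the 9 libraries (exact p = 0.0635) and -0.019 in the 21 (exact p = 0.813), and whether these differ was not tested. The remaining ratios moved less between diets. That of miR-199b to miR-199a-5p differed by 0.066 (adjusted p = 0.748), that of miR-199b to miR-199a-3p by -0.053 (adjusted p = 0.748) and that of miR-214 to miR-199a-5p by -0.015 (adjusted p = 0.8302). The last was -0.21 within the 9 libraries (exact p = 0.222) and 0.085 within the 21 (exact p = 0.149).

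The members rose and fell together from calf to calf. miR-199a-3p and miR-199a-5p were the closest pair apart from the listed copy, with Pearson's r of 0.904 and Spearman's rho of 0.883 on log2(CPM + 1) over 30 calves (permutation p = 1e-05 for each, the smallest that 100000 resamples can give). miR-199a-5p and miR-214 gave r = 0.881 and rho = 0.842 (permutation p = 1e-05 for each), and miR-199a-3p and miR-214 gave r = 0.817 and rho = 0.774 (permutation p = 1e-05 for each). These 3 miRNAs can come from neighbouring precursors, and in every pair of members the values shared a library and its scaling factor.

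miR-199b went with the others less tightly. It gave r = 0.762 and rho = 0.773 with miR-199a-3p (permutation p = 1e-05 for each) and r = 0.639 and rho = 0.671 with miR-199a-5p (permutation p = 8e-05 and 7e-05). With miR-214 it gave r = 0.488 and rho = 0.516 (permutation p = 0.00596 and 0.00415), the lowest of the 10 pairs. All 10 had an adjusted p of at most 0.00596, the pair of miR-199a-3p and miR-199c, with r = 1, being the listed copy.

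Leaving out the 2 calves farthest from the median lowered r to 0.872 for miR-199a-3p with miR-199a-5p, 0.763 for miR-199a-5p with miR-214, 0.762 for miR-199a-3p with miR-214, 0.708 for miR-199a-3p with miR-199b and 0.441 for miR-199b with miR-214, and left 0.655 for miR-199a-5p with miR-199b. Those calves were HI replicates 1 and 15 for the pairs led by miR-199a-3p, HI replicates 1 and 9 for those led by miR-199a-5p, and MOD replicates 3 and 10 for miR-199b with miR-214. Within the sets miR-199a-3p with miR-199a-5p gave r = 0.898 in the 9 libraries and 0.925 in the 21, whereas miR-199a-5p with miR-214 gave 0.621 and 0.951. The r of the 21 include HI replicate 1. The same few calves lay at the ends for every member. HI replicates 1 and 15 were among the 5 highest in all 5 rows, and MOD replicates 3, 9 and 10 among the 5 lowest in all 5.

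**Figure D3:**
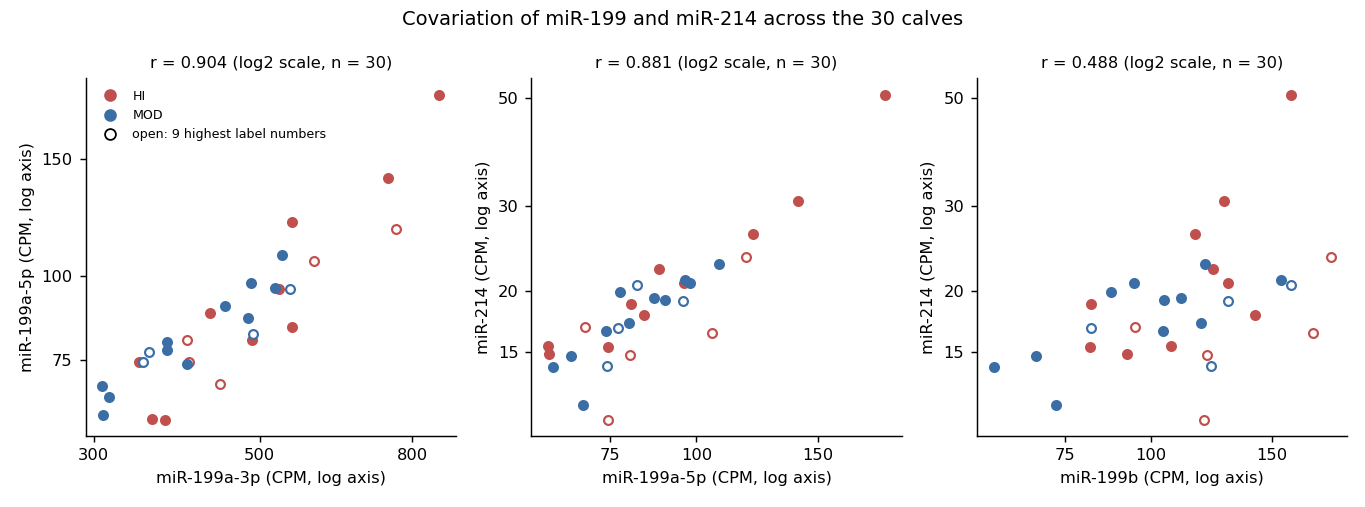
Levels of pairs of members in CPM on log axes, 1 point per calf, for HI (red) and MOD (blue), with open points for the 9 highest label numbers. Points follow a line for miR-199a-3p with miR-199a-5p (r = 0.904) and for miR-199a-5p with miR-214 (r = 0.881) and scatter more for miR-199b with miR-214 (r = 0.488).

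The set of 9 libraries did not differ from the other 21 in the level of any member past the threshold, 0 of 5 against 109 of 419 miRNAs, or 26% (limma with diet in the model, FDR < 0.1). The log2 difference, 9 libraries minus 21, was 0.035 for miR-199a-3p (SE 0.14, FDR 0.888), -0.044 for miR-199a-5p (SE 0.14, FDR 0.861), 0.28 for miR-199b (SE 0.14, FDR 0.175) and -0.23 for miR-214 (SE 0.15, FDR 0.325). The second digit of the calf label number (1, 2, 3 or 7) is called the label number range here. HI and MOD calves numbered 2 and 5 at digit 1, 2 and 1 at digit 2, 3 and 1 at digit 3, and 8 and 8 at digit 7. With the label number range also in the model, the set difference of miR-214 was -0.38 (FDR 0.0931), which is past the threshold, so that the call of miR-214 depends on this term.

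Ratios between members did differ between the sets, in a comparison added after the data were seen. How often ratios of other miRNAs differ between these sets was not tested. Among single miRNAs, 109 of 419, or 26%, passed the threshold between them, so such differences need not be particular to the members. The 5 ratios share members, with miR-214 and miR-199b recurring among them, so their results are not independent. miR-214 over miR-199a-3p had a median of 0.0370 (range 0.0270 to 0.0471) in the 9 libraries and of 0.0424 (range 0.0323 to 0.0584) in the 21. Only 1 of the 9 lay above the median of the 21, and the log2 difference was -0.27 (exact permutation test, two-sided, p = 0.00412, adjusted p = 0.0206 over 5 ratios). miR-199b over miR-199a-5p had medians of 1.55 and 1.13, with 8 of the 9 above the median of the 21 and a log2 difference of 0.32 (exact p = 0.00963, adjusted p = 0.0241).

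miR-214 over miR-199a-5p was lower in the 9 libraries by 0.18 on the log2 scale (exact p = 0.0196, adjusted p = 0.0315), and miR-199b over miR-199a-3p was higher by 0.24 (exact p = 0.0252, adjusted p = 0.0315). The ratio of miR-199a-5p to miR-199a-3p differed by -0.088 (exact p = 0.186). In the 9 libraries miR-214 was thus lower and miR-199b higher relative to both miR-199a-3p and miR-199a-5p. Without HI replicate 1 these 4 differences were between 0.17 and 0.30 in size in the same directions, and their largest adjusted p was 0.0435.

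**Figure D4:**
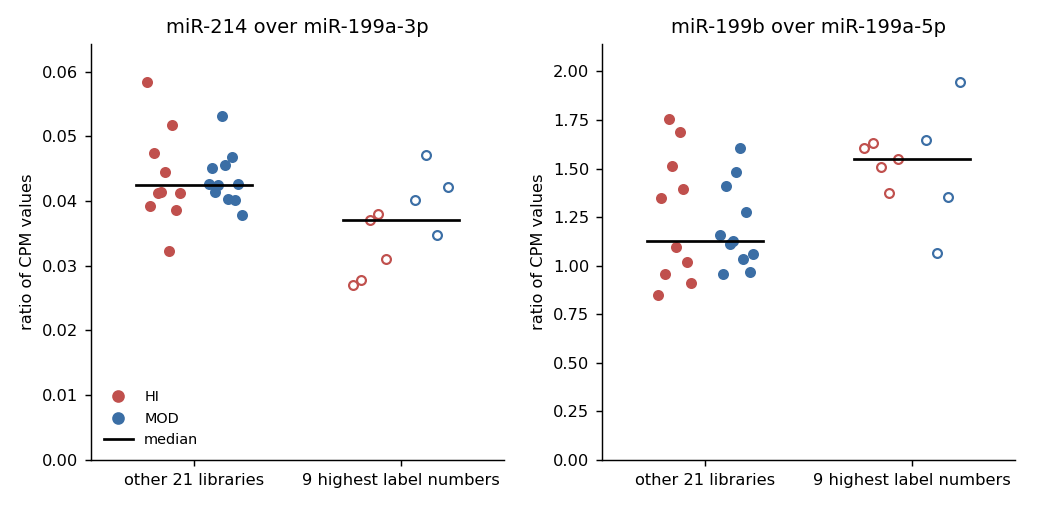
Ratio of CPM values of miR-214 to miR-199a-3p (left) and of miR-199b to miR-199a-5p (right), 1 point per calf, in the 9 libraries with the highest label numbers and the other 21, for HI (red) and MOD (blue), with lines at the medians. The medians are 0.0370 and 0.0424 on the left and 1.55 and 1.13 on the right, and the ranges overlap in both panels.

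The miRNAs that varied most like the members were named by Pearson's r with the mean log2(CPM + 1) of miR-199a-3p, miR-199a-5p and miR-214 over the 30 libraries, among the 295 other tested miRNAs with a mean of at least 10 CPM. These r are a description, with no test, since all points share a library and its scaling. Their median over the 295 was -0.036 and their 90th percentile 0.36. The 5 highest were miR-140 (r = 0.847), a miRNA of cartilage and mesenchyme, miR-143 (r = 0.835) and miR-145 (r = 0.778), which come from a shared cluster and are known for smooth muscle and fibroblasts, miR-133a (r = 0.735), a miRNA of striated muscle, and miR-155 (r = 0.652), a miRNA of activated white blood cells.

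Part of this likeness was carried by HI replicate 1, in which all 5 were at their highest. miR-143 stood at 181565 CPM there against 80613 CPM in the next library, miR-145 at 656 against 345 CPM, miR-140 at 1479 against 980 CPM, miR-133a at 77.3 against 26.7 CPM and miR-155 at 124 against 102 CPM. Without that library r was 0.754 for miR-140, 0.740 for miR-143, 0.626 for miR-145, 0.555 for miR-133a and 0.531 for miR-155. The first 3 kept their ranks, whereas miR-133a went from rank 4 to 6 and miR-155 from rank 5 to 8. Ranks 4 and 5 without that library were those of miR-99a-3p (r = 0.612) and miR-137 (r = 0.574), a miRNA of the neural list. miR-140 and miR-143 were alike to the members in both diets, with r of 0.878 and 0.891 in HI and 0.808 and 0.654 in MOD calves, while miR-145 gave 0.893 and 0.446. In the 9 libraries r was 0.528 for miR-140 and 0.347 for miR-133a, against 0.905 and 0.811 in the 21. The r of HI calves and of the 21 libraries include HI replicate 1 and are not given without it. None of the 5 passed the threshold for diet, with FDR between 0.873 and 0.959.

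At the other end stood miR-216b (r = -0.571), miR-216a (r = -0.549) and miR-217 (r = -0.528), which are encoded close together and are known for the exocrine pancreas. They ran from 0.358 to 42.7, from 1.79 to 183 and from 0.954 to 95.1 CPM over the 30 libraries. Without HI replicate 1 their r were -0.467, -0.479 and -0.477.

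**Figure D5:**
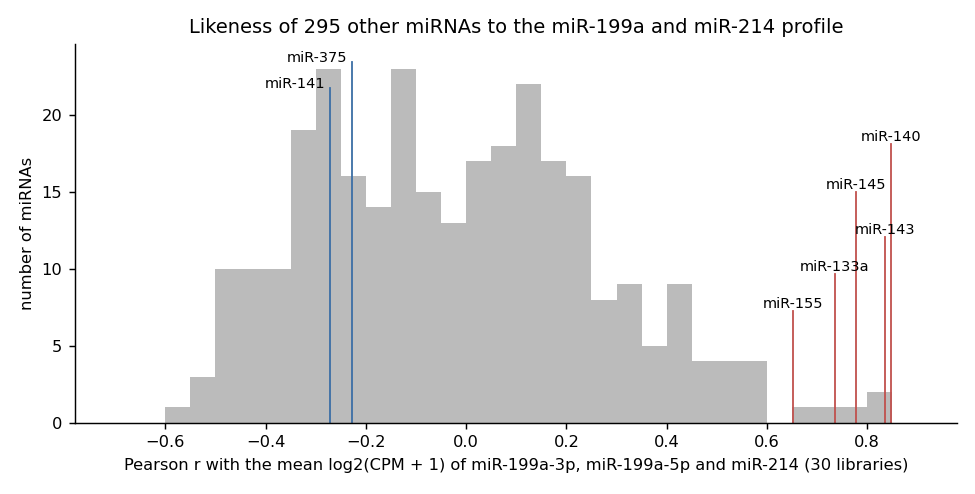
Number of miRNAs by Pearson's r with the mean log2(CPM + 1) of miR-199a-3p, miR-199a-5p and miR-214 over 30 libraries, for 295 miRNAs. The 5 highest (red) lie between 0.652 and 0.847, and the endocrine miR-375 and the epithelial miR-141 (blue) lie at -0.23 and -0.27.

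Lists of miRNAs known from other cell types were set beside the members. Of 7 connective tissue miRNAs, 5 had an r above 0 with the members, as had 46.8% of the 295. These were miR-140, miR-143, miR-145, miR-10b (r = 0.552), a miRNA of the HOX clusters, and miR-21-5p (r = 0.208), a widespread miRNA that is high in injured tissue. miR-152 (r = -0.392) and miR-22-3p (r = -0.342) went the other way. The summed level of the list was 67891 to 210525 CPM in HI and 66867 to 112611 CPM in MOD calves, and its r with the members was 0.777, or 0.628 without HI replicate 1. For the smooth muscle and pericyte pair miR-143 and miR-145 the sums were 31682 to 182221 and 32950 to 75574 CPM, with r = 0.835, or 0.741 without HI replicate 1. miR-143 made up 46.4% to 86.2% of the connective tissue sum and is in both lists, so the sums are largely the same measurement. In neither list did any miRNA pass the threshold for diet, of 7 and 2 tested.

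The collagen-regulating miR-29 family, known for repressing collagen genes that fibroblasts express, had no common sign of r with the members over all 30 libraries. miR-29a (r = -0.454) and miR-29c (r = -0.309) were below 0 and miR-29b (r = 0.122) above it, and miR-29d-3p was under 10 CPM and not compared. Without HI replicate 1 the r of miR-29a, miR-29c and miR-29b were -0.342, -0.337 and -0.059, all below 0. The summed level, led by miR-29a, 3739 to 4385 CPM in HI and 3729 to 4833 CPM in MOD calves, had r = -0.390 with the members, or -0.361 without HI replicate 1. Of the 4 tested miRNAs 1 was called between diets, in a background of 3.58%. This was miR-29a, which fell by 0.14 on the log2 scale in HI calves (SE 0.037, limma FDR 0.0365), from 2914 ± 208 CPM in MOD to 2638 ± 143 CPM in HI calves (SD, n = 15 each), and by 0.13 without HI replicate 1 (FDR 0.0476). The change was smaller than the 1.5-fold that the study also required. miR-29b, miR-29c and miR-29d-3p gave log2 differences of -0.069, -0.076 and -0.15 (FDR 0.873, 0.590 and 0.639).

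Among the 4 striated muscle miRNAs listed, miR-1 and miR-206 were at or near 0, with at most 0.107 and 0.112 CPM. Other miRNAs of striated muscle were not in the list. miR-133a and miR-133b reached 77.3 and 8.43 CPM, both in HI replicate 1, and the summed level had r = 0.729 with the members, or 0.546 without that library. The 2 of 4 that were tested gave no call for diet. Their part in the levels of miR-199 and miR-214 was not tested.

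The endocrine miRNAs miR-375 and miR-7, which are abundant in hormone-secreting cells, summed to 119220 to 212047 CPM in HI and 134487 to 209427 CPM in MOD calves. Their r with the members was -0.254, or -0.061 without HI replicate 1, which ranked 29 of 30 in this sum. The 5 epithelial miRNAs of the miR-200 family gave r = -0.274 for their sum, the 2 endothelial arms of miR-126 gave 0.042 and the 6 white blood cell miRNAs 0.200. Without HI replicate 1 these were -0.335, 0.046 and 0.208. The 3 red blood cell miRNAs gave 0.015 and the 5 neural miRNAs 0.297, or -0.137 and 0.463 without that library. The red blood cell, endothelial and neural sums were led by their most abundant row. miR-486 (mean 19194 CPM) gave r = 0.006, whereas miR-451 (130 CPM) gave 0.508, or 0.291 without HI replicate 1. miR-144, at 4.44 CPM, was not compared. miR-126-5p (11820 CPM) gave r = 0.018, whereas miR-126-3p (897 CPM) gave 0.346, or 0.308 without HI replicate 1. All 3 neural miRNAs compared had an r above 0. miR-128 (465 CPM) gave r = 0.156, whereas miR-137 (32.3 CPM) gave 0.517 and miR-9-5p (29.2 CPM) 0.493. Without HI replicate 1 these were 0.343, 0.574 and 0.411. Apart from miR-29a, none of the tested miRNAs of the 10 lists passed the threshold for diet in the limma fit. The study's own edgeR test called miR-451 and miR-144 of the red blood cell list, both higher in HI calves. In the limma fit miR-451 gave a log2 difference of 0.55 (FDR 0.190) and miR-144 of 0.46 (FDR 0.115). The median log2 difference was 0.040 for the connective tissue list and -0.11 for the collagen-regulating list, against 0.016 over all 419 miRNAs.

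The surroundings of the genes were taken, by name only, from the RefSeq table of another assembly than that of the deposited table, ARS-UCD2.0 in place of ARS-UCD1.2. There MIR214 and MIR199A-1 were nearest neighbours among miRNA genes, and both lay inside DNM3 and were spanned by the long non-coding RNA LOC132342463. MIR199A-2 lay inside DNM2, MIR199B inside DNM1 and MIR199C inside NUP88, a gene of the nuclear pore. MIR3120 overlapped MIR214, and the 2 MIR3604 genes overlapped MIR199A-2 and MIR199B. The miRNAs of these overlapping genes were hardly present, with 0 to 7 reads of miR-3120 and 0 to 2 reads of miR-3604 per library, against 104 to 440 reads of miR-214. Neither passed the filter on low values.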

How the data were processed

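Per the labels and the study's methods, the authors used Cutadapt for adapter trimming, filtered reads by length and against other small RNAs, and ran miRDeep2 on the ARS-UCD1.2 genome. The deposited table gives a signal per mature miRNA and library, CPM divided by TMM factors. Read numbers were worked out from the smallest spacing of values in each library. At least 95.0% of values up to 100 reads came out whole, and TMM factors computed from these reads matched those of the table within 1.13e-05. The recovery gave the true total in 20 of 20 simulated libraries. Over 435 pairs of libraries none was a copy, with a chi-square per degree of freedom of at least 74.6. Diets came from the labels.

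The main test was limma 3.58.1 (R 4.3.3) on log2(CPM + 1) of the 419 miRNAs passing filterByExpr. Alternatives were edgeR 4.0.16 and DESeq2 1.42.0 on recovered reads rounded to whole numbers, other scalings, filters, a pseudocount of 0.1, covariates, and calves left out in turn. Single values were compared by two-sided permutation tests (100000 resamples, or exact within and between sets). Members, lists and the set of 9 libraries were chosen with earlier results of these data known. The named miRNAs are the members, the 5 most similar and those of the 10 lists, and miR-216a, miR-216b, miR-217 and miR-99a-3p were chosen after their values were seen. Mature sequences were not used here, so miRNAs with a shared seed were not looked for. Floors cover counting error only.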

Additional observations from a re-analysis of the deposited data

Results flagged for a closer look

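miR-214 in HI replicate 1 stood apart. It was at 50.8 CPM, and the next of the 10 HI calves with lower label numbers was at 30.6 CPM, a gap of 0.561 of the group's range, above Dixon's critical value of 0.466. Of 30 ends tested over the members and groups this was the only one past its critical value, and chance passes about 1 group in 20. The test used CPM rather than log2 values and groups of at most 10 calves. The 11 MOD calves with lower label numbers were therefore not tested, and miR-199c repeats miR-199a-3p among the 30 ends. In the same library miR-199a-3p and miR-199a-5p were also at their highest, and miR-143 was at 181565 CPM. The part of these in the level of miR-214 was not tested.

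miR-3120, whose gene overlaps MIR214, was outside every comparison. It reached 7 reads in MOD replicate 7, or 0.735 CPM, above the 3 reads that an empty count leaves room for, and it was at or under 3 reads in 27 of 30 libraries.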

How the results depend on the processing

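No member passed the threshold for diet under any of the alternatives, and all kept a log2 difference above 0. Over the tests, scalings, filters and covariates it was 0.25 to 0.35 for miR-199a-3p (FDR 0.145 to 0.548), 0.12 to 0.24 for miR-199a-5p, 0.21 to 0.30 for miR-199b and 0.097 to 0.25 for miR-214. With each calf left out in turn it was 0.23 to 0.32, 0.092 to 0.21, 0.18 to 0.28 and 0.055 to 0.21. Scaling by total counts moved the median difference of all miRNAs from 0.016 to 0.071. The number of miRNAs called for diet was 15, 10 with upper quartile scaling, 24 with DESeq2, and 14 to 21 with calves left out. The ratio of miR-199a-5p to miR-199a-3p ranged from -0.14 to -0.10, that of miR-214 over miR-199a-3p from -0.17 to -0.10, and that of miR-214 over miR-199a-5p from -0.037 to 0.020 with calves left out, and the last was 0.085 within the 21 and -0.21 within the 9 libraries. The ratios of miR-199a-5p and of miR-214 to miR-199a-3p each had an adjusted permutation p of 0.0878, below 0.1, without HI replicate 1. With any other calf left out it was above 0.1. Within the 21 libraries, scaling by total counts gave a diet difference of 0.36 for miR-199a-3p and for miR-199c (exact permutation p = 0.0306 and 0.0307). Between the sets, adding the label number range gave -0.052 for miR-199a-3p and miR-199c and -0.38 for miR-214 (FDR 0.0931, past the threshold). Without HI replicate 1, a choice made after seeing the data, the set difference of miR-199a-5p was 0.015, and the interactions were 0.017 for miR-199a-3p and miR-199c and 0.0063 for miR-199a-5p. The causes were not tested. No paired analysis was possible because no label ties an HI calf to a MOD calf. The study grouped calves by age, weight, sire and farm before assigning diets, and the labels do not give these blocks. Depth limits miR-214 most, at 104 reads in its lowest library.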
